A study of Zea mays with 6 samples.

Results

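GH3 and ZmDAO are genes of the routes by which maize inactivates the hormone auxin (indole-3-acetic acid, IAA). They were selected by gene identifier, as GRMZM2G378106 (GH3) and GRMZM2G121700 (ZmDAO), and are 2 of the 39283 genes in the expression table. RNA was sequenced from the aerial parts of 7-day-old seedlings of the inbred line B73, grown in a greenhouse. The collected shoots were incubated for 30 min in IAA with 1% DMSO, or in 1% DMSO alone, so all samples carried the solvent. The IAA concentration is 100 mM in the sample labels and 100 μM in the published methods. Each treatment had 3 replicates of 3 plants, but the table holds a single value per gene and treatment, pooled over the replicates. The spread between replicates is therefore not known here. The test that the authors ran with cuffdiff was not used, no test was made from the pooled values, and every difference below is a description of 2 pooled values. As whole shoots were sampled, more transcript per cell and more cells that express a gene cannot be told apart.

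GH3 enzymes join IAA or other acyl acids such as jasmonic acid to amino acids. The amide conjugates of IAA are stored, hydrolysed back to IAA or broken down, depending on the amino acid. GH3 genes are classic early auxin response genes, and their transcripts accumulate within minutes of auxin treatment in many plants. DAO (DIOXYGENASE FOR AUXIN OXIDATION) is a 2-oxoglutarate and iron dependent dioxygenase that gives rise to the inactive product oxIAA. In Arabidopsis, DAO has been shown to act on IAA conjugates as well, which places it after GH3 on a shared route. The name table lists GRMZM2G378106 as GH3 without a number, and the acyl acid that this maize enzyme uses is not given there.

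Both genes were higher after IAA, GH3 by the larger ratio and ZmDAO by the larger absolute gain. GH3 lies on chromosome 2 from 209775090 to 209777671 of the B73v3 genome. Its abundance was 50.5 FPKM after IAA, against 4.95 FPKM in the DMSO control, as the authors' pooled values give it (FPKM, the fragments mapped to a gene, scaled by transcript length and library size). That is a ratio of 10.2 and a log2 ratio of 3.35, with a gain of 45.6 FPKM. GH3 was thus a well expressed gene after 30 min of IAA and a weakly expressed one in the control.

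ZmDAO lies on the same chromosome from 38821155 to 38822873. Its abundance was 141 FPKM after IAA, against 29.7 FPKM in the DMSO control. The ratio was 4.74, the log2 ratio 2.24 and the gain 111 FPKM. In contrast to GH3, ZmDAO was already a well expressed gene in the shoots without added IAA.

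**Figure D1:**
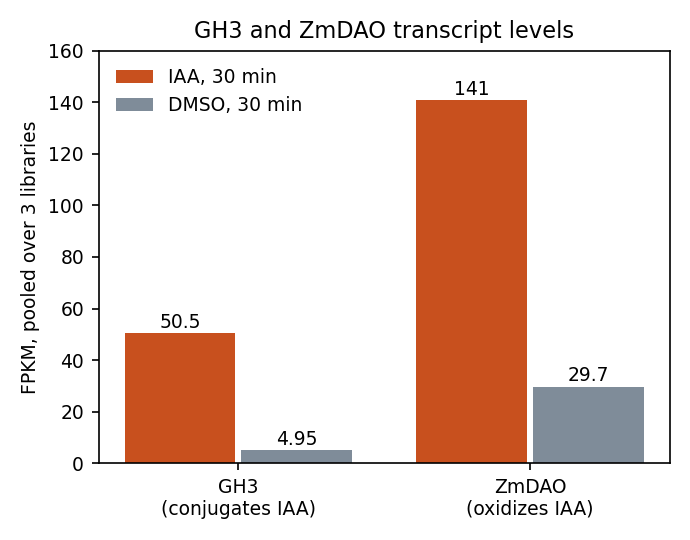
Abundance of GH3 and ZmDAO (y axis, FPKM pooled over 3 libraries by cuffdiff) after 30 min in IAA (orange bars) and in DMSO alone (grey bars). GH3 stands at 50.5 and 4.95 FPKM and ZmDAO at 141 and 29.7 FPKM, and no error bars are drawn because the table holds no replicate values.

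Since FPKM is scaled to transcript length, the levels of both genes can be set side by side. After IAA, the ZmDAO transcript was 2.79 times as abundant as that of GH3, and in the DMSO control it was 6.01 times as abundant. The ratio between the genes was therefore smaller after IAA, whereas the distance in FPKM was larger, at 90.4 FPKM after IAA and 24.8 FPKM in DMSO. The level that GH3 reached after IAA was above the level of ZmDAO in the control, which was 0.589 times as high. These comparisons between genes rest on the transcript models that cuffdiff used. The locus spans 2582 bases for GH3 and 1719 bases for ZmDAO in the deposited table. The RefSeq genes of the later Zm-B73-REFERENCE-NAM assembly are shorter, with 2241 and 1521 bases, introns included. A different transcript length would move the level of a gene in both treatments by the same factor, and would leave its ratio of IAA over DMSO as it is.

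Summed over the pair, the abundance was 191 FPKM after IAA and 34.7 FPKM in DMSO, a ratio of 5.52. GH3 made up 26.4% of this sum after IAA, against 14.3% in DMSO. Of the summed gain of 157 FPKM, ZmDAO contributed 70.9%, and its gain was 2.44 times that of GH3. By ratio the order is turned round, as the ratio of GH3 was 2.15 times that of ZmDAO (a difference of 1.11 on the log2 scale).

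Both ratios lie far from those of most genes. A gene was counted as measured when its mean over both treatments was at least 1 FPKM and neither value was 0, which left 22506 genes. GH3 and ZmDAO are both among them. Of the measured genes, 211 were at least 2-fold higher after IAA, or 0.938%, and 314 were at least 2-fold lower, or 1.40%. At least 4-fold higher, as both genes were, were 31 genes or 0.138%. The median log2 ratio of the measured genes was -0.04, and 95% of them lay between -0.80 and 0.71.

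**Figure D2:**
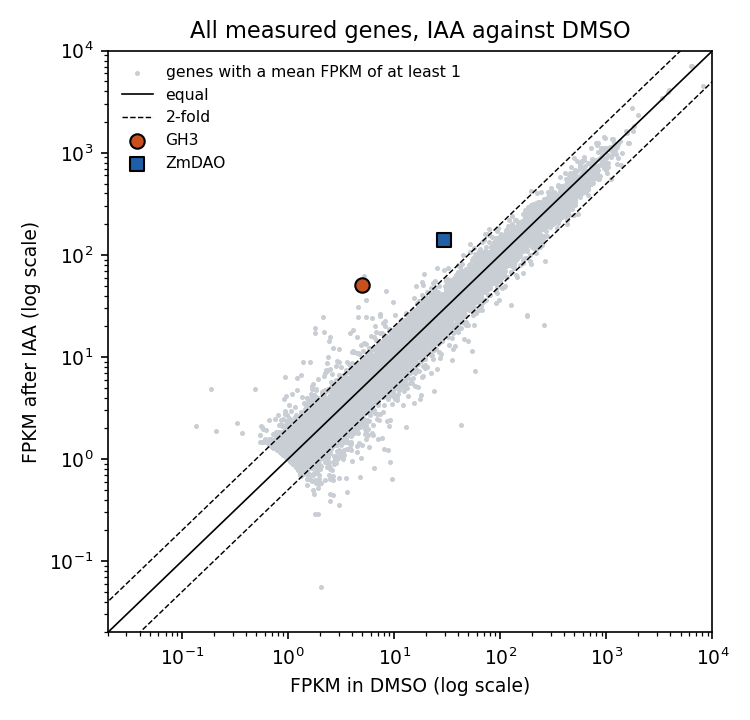
FPKM after IAA (y axis) against FPKM in DMSO (x axis), both on log scales, for the 22506 genes with a mean of at least 1 FPKM (grey points), with lines of equal abundance and of a 2-fold difference. GH3 (orange circle) and ZmDAO (blue square) lie above the upper 2-fold line, ZmDAO further to the right at 29.7 FPKM in DMSO and GH3 at 4.95 FPKM.

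The place of each gene among all measured genes differed between the treatments. After IAA, 13.3% of the measured genes were more abundant than GH3, against 71.6% in DMSO. For ZmDAO these shares were 4.43% after IAA and 22.6% in DMSO. GH3 therefore stood in the more abundant part of the measured genes after IAA and in the less abundant part in DMSO, whereas ZmDAO stood in the more abundant part under both treatments. The median measured gene had 10.5 FPKM after IAA and 10.7 FPKM in DMSO, so in DMSO GH3 was below this median and ZmDAO above it.

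Ranked by ratio, GH3 was at place 6 of the measured genes and ZmDAO at place 24. The genes with a higher ratio than these were mostly scarcer. The 5 genes above GH3 had a median of 19.2 FPKM after IAA and 1.79 FPKM in DMSO, and only 1 of them was more abundant than GH3 after IAA. None of the 23 genes above ZmDAO reached its abundance after IAA, the highest having 62.0 FPKM. Among the 10188 genes with a mean of at least 10 and below 100 FPKM, where both genes fall, 50 were at least 2-fold higher, or 0.491%. At least 4-fold higher in that range were 12 genes, or 0.118%. There GH3 was at place 4 by ratio and ZmDAO at place 9. Only 3 of all measured genes were at least 4-fold higher and had 50 FPKM or more after IAA, with GH3 and ZmDAO as 2 of them. The other is GRMZM2G030465, which the name table gives no name but a RefSeq identifier. This limit of 50 FPKM was chosen after the values were seen, and GH3 lies just inside it.

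Ranked by absolute gain, ZmDAO was at place 55 and GH3 at place 190 of all 39283 genes. Most larger gains came from abundant genes with small ratios. Among the 211 genes that were at least 2-fold higher, ZmDAO had the second largest gain and GH3 was at place 16, whereas the median gain was 3.66 FPKM. The larger gain was that of GRMZM2G087598, listed as FtsH2B, a name of thylakoid membrane proteases, with 421 FPKM after IAA and 196 FPKM in DMSO. Its ratio was 2.15, so that gain was added to a far higher control level than that of ZmDAO.

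**Figure D3:**
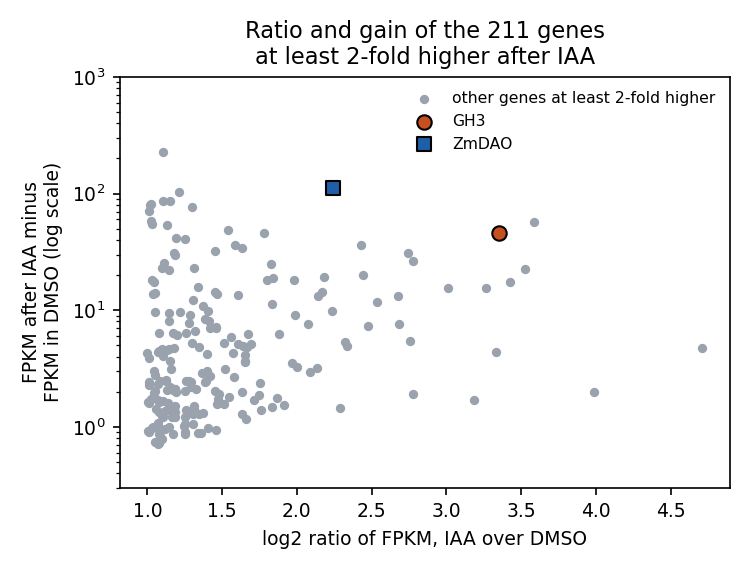
Gain in FPKM (IAA minus DMSO, y axis, log scale) against the log2 ratio (x axis) for the 211 genes that were at least 2-fold higher after IAA. ZmDAO (blue square) has a gain of 111 FPKM at a log2 ratio of 2.24 and GH3 (orange circle) a gain of 45.6 FPKM at 3.35. The gains are widely spread, with a median of 3.66 FPKM and a maximum of 225 FPKM.

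The genes most like GH3 in abundance under both treatments were sought by the distance on the log2 scale over the pooled values of the treatments, which are only 2 points per gene. The nearest to GH3 was GRMZM2G030465, at a distance of 0.302, with 62.0 FPKM after IAA and 5.16 FPKM in DMSO. The next was BIF1 (GRMZM2G130953), a gene of the Aux/IAA family of auxin response repressors, at a distance of 0.493. It had 36.4 FPKM after IAA and 5.45 FPKM in DMSO. The third was GRMZM2G413482, an identifier with no entry in the name table, with 31.2 and 4.56 FPKM at a distance of 0.706. In all, 4 measured genes lay within a distance of 1 of GH3.

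ZmDAO had no gene as close. Its nearest was GRMZM2G035749 at a distance of 0.788, with 98.7 FPKM after IAA and 45.0 FPKM in DMSO. GRMZM2G057075 followed at 0.822, with 128 and 52.2 FPKM. The third was the gene listed as AUX3 (GRMZM2G004696), at 0.907, with 107 and 52.2 FPKM. All 3 were less abundant than ZmDAO after IAA and more abundant in DMSO, and their log2 ratios were between 1.03 and 1.30, against 2.24 for ZmDAO. Within a distance of 1 of ZmDAO lay 9 genes.

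Other genes of IAA metabolism were taken by symbol. The name table pairs few of them with identifiers of the expression table, so nothing can be said here of whole families. No second GH3 gene, no IAA-amino acid hydrolase gene, whose product frees IAA from its conjugates, and no second DAO gene were found by symbol. The paper names GH3 genes in the plural among its upregulated genes, so others may stand under identifiers without that symbol. The gene whose symbol is DAO, GRMZM2G025977, is by its synonyms a D-amino acid oxidase and a different enzyme. It had 28.0 FPKM after IAA and 25.2 FPKM in DMSO, close to the control level of ZmDAO but with a log2 ratio of 0.15.

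A further route of inactivation is the joining of IAA to glucose, for which maize is a classic plant. The gene of the IAA glucosyltransferase, iaglu (GRMZM2G024131), was hardly detected, with 0.00719 FPKM after IAA and 0.0206 FPKM in DMSO. It did not reach the mean of 1 FPKM, and its ratio is not interpreted here. By transcript abundance, GH3 and ZmDAO were thus far above the glucosyltransferase gene under both treatments.

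The genes of IAA synthesis were scarce or nearly equal between the treatments. The list held 9 genes, of which 4 (Yucca3, Yucca10, Yucca12 and the gene listed as yuc) were listed at 0 in both treatments. YUCCA enzymes are flavin monooxygenases that carry out the last step from indole-3-pyruvate to IAA. Yucca6 (GRMZM2G019515) was the only measured gene of the list, with 11.8 FPKM after IAA and 11.4 FPKM in DMSO and a log2 ratio of 0.05. The shoots therefore held less Yucca6 than GH3 transcript after IAA and more in DMSO. The YUCCA gene spi1 (GRMZM2G025222, sparse inflorescence1) had 0.363 FPKM after IAA and 0.548 FPKM in DMSO. Yucca2 and Yucca7 were at 0.223 and 0.257 FPKM after IAA, and at 0.472 and 0.507 FPKM in DMSO. TAR3 (GRMZM2G141810), listed by the symbol of tryptophan aminotransferases that make indole-3-pyruvate, had 0.0922 FPKM after IAA and 0.154 FPKM in DMSO. All of these except Yucca6 were below the mean of 1 FPKM. Of the 12 genes of inactivation and synthesis, 3 were measured, of which GH3 and ZmDAO were at least 2-fold higher, and none was at least 2-fold lower. With so few genes, and GH3 and ZmDAO as most of them, this count says nothing more about the pathway than the values above, beside the 0.938% of all measured genes.

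**Figure D4:**
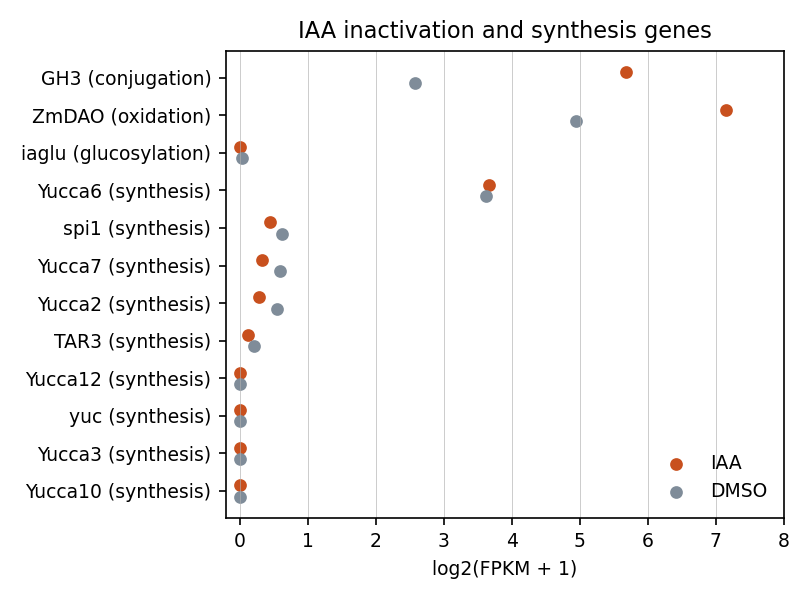
Abundance as log2(FPKM + 1) (x axis) of the 12 genes of IAA conjugation, oxidation, glucosylation and synthesis that could be matched by name, after IAA (orange) and in DMSO (grey). GH3 and ZmDAO show the wide gaps between treatments, Yucca6 lies at almost the same place in both, and the other genes are at or near 0.

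GH3 and ZmDAO lie far apart on chromosome 2, and neither locus overlaps that of another gene in the table. The genes around GH3 did not share its difference. Before it, GRMZM2G175718 lies 85.1 kb away, with 2.67 FPKM after IAA and 2.88 FPKM in DMSO. GRMZM2G376432 lies 96.8 kb away with 11.9 and 13.5 FPKM, and shares its locus with GRMZM2G077845, whose log2 ratio was -0.20. After GH3, GRMZM2G079067 and GRMZM2G079082 lie at 6.30 and 11.5 kb and were nearly silent. GRMZM2G079067 had 0.0349 FPKM after IAA and 0.0426 FPKM in DMSO, and GRMZM2G079082 had 0.00940 and 0.0164 FPKM. The gain of GH3 is therefore not seen in the annotated genes next to it.

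The genes next to ZmDAO were expressed under both treatments. GRMZM2G147884 and GRMZM2G447691 share a locus 50.2 kb before it. GRMZM2G147884 had 46.0 FPKM after IAA and 38.1 FPKM in DMSO, and GRMZM2G447691 had 83.5 and 91.7 FPKM. After ZmDAO, GRMZM2G060906 at 98.1 kb had 9.46 FPKM after IAA and 9.17 FPKM in DMSO. GRMZM2G362368 at 128 kb had 7.67 FPKM after IAA and 10.6 FPKM in DMSO. None of these 4 genes reached a 2-fold difference.

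Over a window of 500 kb to each side, chosen after the nearest genes had been seen, the same held. Around GH3, 21 other genes were measured, with log2 ratios from -0.52 to 0.17 and a median of -0.19. Around ZmDAO there were 9, from -0.47 to 0.29 with a median of -0.01. None of these 30 genes was at least 2-fold higher or lower, set beside 0.938% and 1.40% of all measured genes. At such shares few or none of any 30 genes would pass, so this count does not set these neighbourhoods apart.

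**Figure D5:**
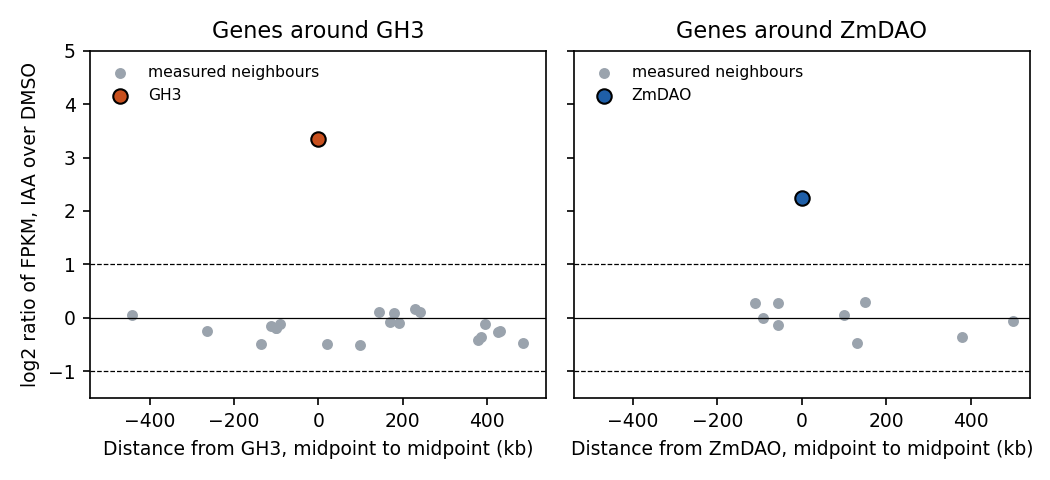
Log2 ratio of FPKM, IAA over DMSO (y axis), of the measured genes within 500 kb of GH3 (left) and of ZmDAO (right), plotted by the distance between gene midpoints in kb (x axis), with dashed lines at a 2-fold difference. GH3 at 3.35 and ZmDAO at 2.24 stand alone above the upper line, and the 21 and 9 neighbours lie between the lines.

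The total of all FPKM values was 785743 after IAA and 821595 in DMSO, so the IAA total was 95.6% of that in DMSO. Rescaled to a common total of 1000000 (TPM), GH3 was at 64.3 after IAA and 6.03 in DMSO, and ZmDAO at 179 and 36.2. Several genes matched by leaf symbols were expressed at high levels in the shoots, and others at far lower levels. The C4 enzyme genes pep1 (GRMZM2G083841, phosphoenolpyruvate carboxylase) and pdk1 (GRMZM2G306345, pyruvate phosphate dikinase) had 1259 and 2726 FPKM after IAA. In DMSO, pep1 and pdk1 had 805 and 1741 FPKM. The Rubisco small subunit gene rbcS (GRMZM2G113033) had 1840 FPKM after IAA and 1829 FPKM in DMSO. By contrast, the genes listed as PDK1 (GRMZM2G097821 and GRMZM2G107196) had 11.8 and 13.2 FPKM after IAA. Pep1 (GRMZM5G899080), PPDK (GRMZM2G097457) and rca3 (GRMZM2G162282) had 2.83, 8.52 and 0.183 FPKM after IAA. Of the 19 genes matched by leaf symbols, 18 were measured, and 13 of these had a log2 ratio above 0 and 5 below 0. Their ratios lay between -0.27 and 1.00 with a median of 0.23, against a median of -0.04 over all measured genes. Only PPDK (GRMZM2G097457), right at the limit, counted as at least 2-fold higher, beside 0.938% of all measured genes. The summed level of the list was 17362 FPKM after IAA and 15049 FPKM in DMSO, and its part in the levels of GH3 and ZmDAO was not tested. Root genes were matched for 2 symbols. The root hair gene rth3 had 8.70 FPKM after IAA and 11.1 FPKM in DMSO, and rtcs, a gene of root initiation, had 0.220 and 0.0530 FPKM.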

How the data were processed

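RNA-seq was performed on 6 libraries, 3 per treatment. Per the labels and the published methods, the authors quality-trimmed the reads (trimmomatic), mapped them to the B73v3 genome (TopHat2 2.1.1) and ran Cuffdiff 2.2.1. The deposited FPKM values are 1 per gene and treatment and pool the replicates. The libraries were stranded, but whether counting used strand is not given in the sources used here. Most analyses of the study used primary B73v3 transcripts, which the methods do not state for cuffdiff in particular. The table also holds the authors' log2 fold changes, test statistics, p-values, q-values and calls, which were not used.

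Ratios were taken directly between FPKM values, with no pseudocount. A gene was kept with a mean of at least 1 FPKM and no value of 0, and 18 genes with such a mean were left out for a 0. A fold of 2 served as the limit. Locus starts were raised by 1. Low values showed no steps of whole reads, as the most common ratio was shared by only 0.781% of 2178 scarce genes, so the depth is unknown and no interval is given. Names came from the files, the paper and RefSeq (Zm-B73-REFERENCE-NAM), where 18995 identifiers were found. No descriptions and no sequences were used, so a planned protein and promoter search was not run.

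The named genes were GH3 and ZmDAO, the genes of IAA metabolism matched by symbol, the 2 nearest genes on each side and the 3 most similar genes. The rule took only measured or 2-fold changed genes of IAA metabolism, and the scarce ones were added after their values were seen. FtsH2B was also named after its values were seen. The genes and lists were chosen with earlier results of these data known. The counting step was run on a simulated table with known fold changes as a check of the code only, which gives no error rate. The software was Python 3.11.15 with numpy 2.4.6, pandas 2.3.3 and, for plots, matplotlib 3.10.9.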

Additional observations from a re-analysis of the deposited data

How the results depend on the processing

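No paired analysis was possible because cuffdiff had merged the replicates, and for the same reason no replicate was left out. GH3 and ZmDAO stayed at least 4-fold higher after IAA in every setting that was run for them. With 1 FPKM added to both values, the log2 ratios were 3.11 for GH3 and 2.21 for ZmDAO, and ZmDAO was 2.75 times as abundant as GH3 after IAA and 5.17 times in DMSO. With 0.1 FPKM added, the log2 ratio of GH3 was 3.33. Rescaled to a total of 1000000, the log2 ratios were 3.42 and 2.31 and the gains 58.3 and 143 TPM, and with the median log2 ratio set to 0 the ratios were 3.39 and 2.28. With no replicate values, a value was taken as moved where its rounded value, to 2 decimals (log2) or 3 digits, differed.

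The background depends more on the setting. The genes at least 2-fold higher and lower numbered 108 and 156 of 22506 genes with 1 FPKM added. They were 93 and 127 of 16051 genes with a mean of at least 5 FPKM, and 1190 and 1283 of 29617 genes with no filter on the mean. Rescaled to a total of 1000000, they were 263 and 265, so that the excess of lower over higher genes was nearly gone. With a limit of 4-fold they were 31 and 34. With no filter, 2 scarce genes of IAA metabolism, iaglu and Yucca2, counted as lower, beside 1283 of all 29617 genes. Both were below 1 FPKM in both treatments, and their ratios are not interpreted here. Without the filter, GH3 was at place 22 and ZmDAO at place 171 of 29617 genes by ratio. With a mean of at least 5 FPKM, GH3 and ZmDAO were at places 4 and 15 of 16051 genes. How far sequencing depth limits the scarce genes could not be measured.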
